A study of Mus musculus with 16 samples.

Results

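Tff3, Krt23 and 7 further genes of the bile duct epithelium, Krt19, Krt7, Krt8, Krt18, Sox9, Epcam and Ezr, were followed in mouse livers. All 9 were found by symbol among the 12617 genes tested. The filter on low values, a mean of at least 10 normalized counts, could remove none, as the lowest mean of any gene was 13.3. The list was drawn up with the differences between the groups already known. Tff3 had the largest log2 difference of all genes upwards and Krt23 the sixth largest downwards, and both were chosen by that difference, with the other 7 put beside them as biliary genes. The difference between the groups is therefore given for the 9 genes as a description, and nothing is read from a test of it.

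Messenger RNA was sequenced from livers labelled CYP7A1 in genotype and from livers labelled Ctrl, with 8 libraries in each group, and all mice had eaten a Western diet for 8 weeks. The design text describes the mice as Cyp7a1 CRISPR and control CRISPR. CRISPR is used to cut a chosen gene, and the enzyme encoded by Cyp7a1 sets the pace of the classical route from cholesterol to bile acids. The sources used here do not give strain, sex, age, how the editing reagents were delivered or which cells they reached. They also do not state that the libraries come from separate mice, and p-values therefore measure only how far these samples spread, which may be technical. Recovered reads per library averaged 23.4 ± 2.41 M in the Cyp7a1-labelled group and 21.02 ± 3.48 M in the control group (SD, n = 8 each), and single libraries held 13.8 to 27.4 M reads. The targeted transcript, Cyp7a1, had 4702 ± 1126 normalized counts in the Cyp7a1-labelled group and 3587 ± 1252 in the control group (SD, n = 8 each), so it was no lower under the label of its editing. A count per gene cannot tell an edited transcript from an intact one, so each direction given rests on the labels.

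Most cells of the liver are hepatocytes, which make bile, and bile leaves through ducts lined by cholangiocytes, the biliary epithelium. Hepatocytes build their keratin filaments from the paired keratins 8 and 18, while cholangiocytes add keratins 7 and 19 to that pair. Cholangiocytes also carry the adhesion protein EpCAM, the transcription factor SOX9 and ezrin, which ties the apical membrane to the actin cytoskeleton. Trefoil factor 3 is a small secreted peptide of mucous epithelia, and keratin 23 is a type I keratin described in the reactive bile ducts of injured mouse and human livers. In whole liver tissue, fewer cells of a type and less RNA per cell cannot be told apart.

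The sequences shown are those of the 2 genes whose groups are apart, the coding sequence of Tff3 and the promoter of Krt23. Tff3 (ENSMUSG00000024029, chr17:31125306-31129646 on mm10, minus strand) has 3 exons, and its coding sequence without the stop codon runs to 243 bases, or 81 codons, spliced from chr17:31125486-31129576. Capitals mark the 7 in-frame cysteine codons. Disulfide bonds between cysteines hold the trefoil fold together, and the last cysteine lies outside the fold and serves to join the peptide into dimers. The sequence is that of GENCODE M21.

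Tff3 coding sequence: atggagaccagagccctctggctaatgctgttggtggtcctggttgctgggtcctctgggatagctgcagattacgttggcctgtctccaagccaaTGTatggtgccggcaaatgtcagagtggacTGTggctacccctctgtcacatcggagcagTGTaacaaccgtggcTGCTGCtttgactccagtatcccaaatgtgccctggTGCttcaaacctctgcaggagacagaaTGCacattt

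For 6 of the 9 genes, Krt23, Krt7, Krt8, Krt18, Epcam and Ezr, a promoter was found in the RefSeq table on GRCm38.p6, the mm10 build. The 250 bases before the annotated start of Krt23 are shown, with the palindromic E-box CACGTG in capitals.

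Krt23 promoter, chr11:99493121-99493370, minus strand: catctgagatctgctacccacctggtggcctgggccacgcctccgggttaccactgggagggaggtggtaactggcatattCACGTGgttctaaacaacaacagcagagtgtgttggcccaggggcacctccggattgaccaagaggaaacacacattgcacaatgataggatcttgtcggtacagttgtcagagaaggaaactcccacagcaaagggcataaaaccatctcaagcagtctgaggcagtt

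The TATA box core TATAAA, its variant TATATAA, the GC box GGGCGG, the E-box CACGTG and the nuclear receptor half-site AGGTCA were searched on both strands. CACGTG began 169 bases before the start of Krt23 and is held by 6.02% of the 32851 promoters of this length. AGGTCA began 225 bases before the start of Krt8 and 108 bases before that of Krt18, and 14.02% of promoters hold it. GGGCGG, held by 32.7% of promoters, stood before Krt7, Epcam and Ezr. TATAAA, held by 12.4%, and TATATAA, held by 3.04%, were found in none of the 6 windows. These are matches of letters, not binding sites.

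Tff3 was the gene of this set whose Cyp7a1-labelled livers all lay above the control livers. It had between 35.0 and 390.5 normalized counts in Cyp7a1-labelled livers, with a median of 108, against 2.02 to 24.4 with a median of 6.32 in control livers. The lowest Cyp7a1-labelled liver had 1.43 times the level of the highest control liver. These values rest on 42 to 498 recovered reads per Cyp7a1-labelled library and 2 to 25 reads per control library. In Control 25, with 2 reads, the exact 95% Poisson interval was 0.242 to 7.22 reads, which covers counting error only. The means were 136 ± 110 normalized counts in the Cyp7a1-labelled group and 9.80 ± 7.36 in the control group (SD, n = 8 each), a ratio of 13.9. The control mean lies under the minimum mean of 10, which Tff3 passed only through the Cyp7a1-labelled group. On the log2(value + 1) scale the difference was 3.63 ± 0.45 (SE), and with a pseudocount of 8 it was 2.83.

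Tff3 also varied widely inside each group. The highest liver had 11.2 times the level of the lowest in the Cyp7a1-labelled group and 12.1 times in the control group. Cyp7a1 36 held the highest level and Cyp7a1 24 the lowest of their group, and Control 12 and Control 25 marked the ends of theirs. The standard deviation on the log2 scale was 1.01 in the Cyp7a1-labelled group and 0.97 in the control group, larger than that of 99.4% and 99.2% of all genes tested. Counting alone would give a coefficient of variation of 7.99% in the Cyp7a1-labelled group and 31.4% in the control group, while 80.6% and 75.1% were measured.

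Krt23 was lower in the Cyp7a1-labelled livers. It had between 10.4 and 56.6 normalized counts in Cyp7a1-labelled livers, with a median of 35.7, against 84.9 to 210.2 with a median of 146 in control livers. The groups again did not overlap, with the lowest control liver, Control 12, above the highest Cyp7a1-labelled liver, Cyp7a1 26. The read counts were 10 to 73 per Cyp7a1-labelled library and 56 to 208 per control library. The means were 33.3 ± 16.6 normalized counts in the Cyp7a1-labelled group and 140.2 ± 47.8 in the control group (SD, n = 8 each), and the log2 difference was -2.15 ± 0.31 (SE). Krt23 (ENSMUSG00000006777, chr11:99477974-99493137, minus strand) lies in the type I keratin cluster, on the chromosome that also carries Krt19 and Sox9.

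The fold changes of these 2 genes have opposite signs, and no correlation between their levels from liver to liver passed the threshold. Over the 8 Cyp7a1-labelled livers the correlation of Tff3 with Krt23 was r = -0.06 (exact permutation p = 0.890, adjusted p = 0.916) and Spearman's rho -0.05 (p = 0.935, adjusted p = 0.948), and over the 8 control livers it was r = -0.63 (p = 0.0979, adjusted p = 0.224) and rho -0.55 (p = 0.171, adjusted p = 0.316). Without the 2 livers farthest from the Tff3 median r was -0.50 in the Cyp7a1-labelled group and -0.15 in the control group. Cyp7a1 36, the liver with the most Tff3, had 50.2 normalized counts of Krt23, the second highest of its group.

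**Figure D1:**
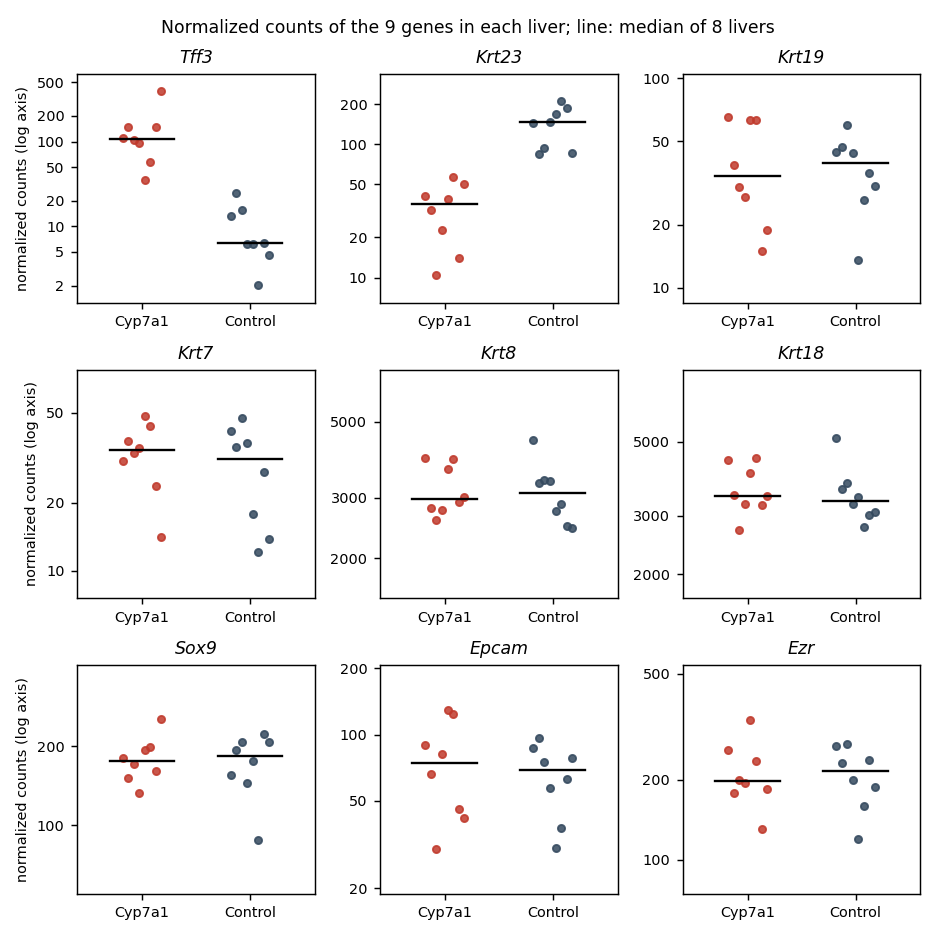
Each panel plots 1 gene on its own log axis of normalized counts, with 1 point per liver, the 8 Cyp7a1-labelled livers on the left, the 8 control livers on the right and a line at the median. The groups are apart for Tff3, with 35.0 to 390.5 in Cyp7a1-labelled and 2.02 to 24.4 in control livers, and for Krt23, with 10.4 to 56.6 in Cyp7a1-labelled and 84.9 to 210.2 in control livers, and overlap in the other 7 panels.

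The markers that define cholangiocytes overlapped between the groups. Krt19, the type I keratin of bile ducts (ENSMUSG00000020911, chr11:100140810-100148665, minus strand), had 15.0 to 65.5 normalized counts with a median of 34.3 in Cyp7a1-labelled livers, against 13.6 to 59.7 with a median of 39.6 in control livers. Its type II counterpart Krt7 (ENSMUSG00000023039, chr15:101411043-101430313, plus strand) had 14.1 to 48.3 with a median of 34.1 in Cyp7a1-labelled livers, against 12.1 to 47.2 with a median of 31.2 in control livers. Both ranges overlap over most of their length. The log2 difference was 0.02 ± 0.33 for Krt19 and 0.26 ± 0.30 for Krt7 (SE).

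Epcam, a homophilic adhesion protein (ENSMUSG00000045394, chr17:87635979-87651129, plus strand), had 30.2 to 129 normalized counts with a median of 74.1 in Cyp7a1-labelled livers, against 30.3 to 96.6 with a median of 68.9 in control livers. Sox9, a transcription factor of bile duct fate (ENSMUSG00000000567, chr11:112782224-112787760, plus strand), had 133 to 255 with a median of 176 in Cyp7a1-labelled livers, against 87.9 to 223 with a median of 184 in control livers. Ezr (ENSMUSG00000052397, chr17:6738041-6782784, minus strand) had 130.4 to 337 with a median of 197 in Cyp7a1-labelled livers, against 119 to 272 with a median of 215 in control livers. The groups overlapped for each of these genes, and the log2 differences were 0.14 ± 0.30 for Epcam, 0.08 ± 0.17 for Sox9 and 0.04 ± 0.18 for Ezr (SE).

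The keratin pair of hepatocytes was the most abundant. Krt8 (ENSMUSG00000049382, chr15:101996698-102004482, minus strand) had 2592 to 3930 normalized counts with a median of 2975 in Cyp7a1-labelled livers, against 2448 to 4441 with a median of 3094 in control livers. Krt18 (ENSMUSG00000023043, chr15:102028180-102032027, plus strand) had 2711 to 4470.03 with a median of 3447 in Cyp7a1-labelled livers, against 2779 to 5152 with a median of 3329 in control livers. The log2 differences were 0.04 ± 0.12 for Krt8 and 0.05 ± 0.12 for Krt18 (SE), and the groups overlapped. The ratio of Krt8 to Krt18 counts was 0.807 to 0.956 in Cyp7a1-labelled livers and 0.797 to 1.04 in control livers. The 2 genes lie 23.7 kb apart and point away from each other.

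Of the 9 genes, 2 had a limma adjusted p under 0.05 and 2 had groups that did not overlap, Tff3 and Krt23 in both cases. Across all genes 6.12% passed that threshold, 3.07% higher and 3.05% lower in the Cyp7a1-labelled group, and 1.04% had groups that did not overlap, 0.507% higher and 0.531% lower. Since the groups' difference chose these genes, nothing is read from the counts. The log2 differences of the 9 genes had a median of 0.05, beside 0.0034 over all genes tested.

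Per kilobase of the principal transcript, mean levels in the Cyp7a1-labelled group were 2523 ± 433 normalized counts for Krt18, 1633 ± 277 for Krt8, 277 ± 223 for Tff3, 67.9 ± 19.7 for Ezr, 43.7 ± 8.95 for Sox9, 37.3 ± 18.2 for Epcam, 25.5 ± 13.3 for Krt19, 21.3 ± 10.6 for Krt23 and 8.12 ± 2.64 for Krt7 (SD, n = 8). In the control group Krt18 had 2439 ± 514, Krt8 1601 ± 332, Krt23 89.6 ± 30.6, Ezr 65.99 ± 16.8, Sox9 42.2 ± 10.6, Epcam 32.1 ± 11.4, Krt19 23.9 ± 9.03, Tff3 19.9 ± 14.9 and Krt7 7.07 ± 3.23 (SD, n = 8). The order was thus shared by the groups apart from Tff3 and Krt23. Tff3 followed Krt8 in the Cyp7a1-labelled group and Krt19 in the control group, and Krt23 held those places the other way round. Neighbours from Sox9 to Krt23 in the Cyp7a1-labelled group and from Sox9 to Tff3 in the control group lie within 1 SD of each other. The length used for Krt7 was 4.094 kb, and its annotated exons together cover 7.049 kb.

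Tff3 and Krt23 were also set against Krt19 in the same liver, as a description, since the groups' difference chose both. The ratio of Tff3 to Krt19 counts was 0.553 to 20.8 in Cyp7a1-labelled livers, with a median of 3.50, against 0.0769 to 0.521 with a median of 0.219 in control livers. The nearest livers were Cyp7a1 24 at 0.553, with 42 reads of Tff3, and Control 12 at 0.521, with 25 reads. Counting error in these reads was not carried into the ratios. The ratio of Krt23 to Krt19 was 0.345 to 2.67 in Cyp7a1-labelled livers, with a median of 0.840, against 1.58 to 12.3 with a median of 3.30 in control livers, so these ranges overlapped.

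A processed pseudogene of Krt8, Krt8-ps on chromosome 7, was listed with 158 to 271 normalized counts in Cyp7a1-labelled livers and 135 to 315 in control livers. It held 5.85% to 7.23% of the Krt8 count in Cyp7a1-labelled livers and 5.52% to 7.78% in control livers. How reads that match both copies were counted is not given in the sources, so the Krt8 level is uncertain by an amount that was not measured. The strand setting of the counting is not given. Krt7 shares 77 exonic bases with the antisense gene Gm671, Krt8 overlaps the lincRNA Gm36026 on the other strand, and reads of such partners cannot be told apart.

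The variation between livers of 1 group does not depend on the difference that chose the genes, so it was tested. For all 36 pairs of the 9 genes, Pearson's r and Spearman's rho of log2(value + 1) were computed over the 8 livers of each group separately, giving 72 correlations with two-sided exact permutation tests over 40320 pairings. With Benjamini-Hochberg adjustment over the 72, 2 pairs passed 0.05 in the Cyp7a1-labelled group and 1 in the control group by Pearson's r. None passed by Spearman's rho, whose smallest adjusted p was 0.143. At an unadjusted exact permutation p under 0.05 there were 22 of 72 by Pearson's r and 19 by Spearman's rho. The share over pairs of all genes is not given, so these counts are not read as a trait of the 9 genes.

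Krt8 and Krt18 varied together in the Cyp7a1-labelled livers. In Cyp7a1-labelled livers r was 0.96 (exact permutation p = 0.000496, adjusted p = 0.0357) and rho 0.86 (p = 0.0107, adjusted p = 0.143), and r was 0.89 without the 2 livers farthest from the Krt8 median. In control livers r was 0.85 (exact permutation p = 0.00915, adjusted p = 0.0885) and rho 0.74 (p = 0.0458, adjusted p = 0.174), and r was 0.61 without the 2 farthest. Control 7 held the most of both genes, with 4441 normalized counts of Krt8 and 5152 of Krt18.

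Among the cholangiocyte genes, Krt19, Krt7, Epcam and Ezr had correlations above 0 in their 6 pairs in both groups, of which 1 passed in control livers and 0 in Cyp7a1-labelled livers, while Sox9, also a cholangiocyte gene, did not follow that pattern. The 6 pairs, picked after their values were seen, had r of 0.56 to 0.86 in Cyp7a1-labelled livers and 0.59 to 0.93 in control livers. The pair that passed in control livers was Krt19 with Ezr, with r = 0.93 (exact permutation p = 0.00129, adjusted p = 0.0423) and rho 0.88 (p = 0.00724, adjusted p = 0.143), and r was 0.78 without the 2 livers farthest from the Krt19 median. In Cyp7a1-labelled livers this pair had r = 0.86 (exact permutation p = 0.00335, adjusted p = 0.0603) and rho 0.79 (p = 0.0279, adjusted p = 0.155), with r = 0.75 without the 2 farthest. In control livers Krt19 and Ezr also followed the summed mesothelial markers described below, with r of 0.97 and 0.91. In Cyp7a1-labelled livers r was 0.65 and 0.62, and neither passed (exact permutation, adjusted p = 0.254 and 0.281). Without the 2 livers farthest from the median sum, r there was -0.40 for Krt19 and -0.03 for Ezr. Which cells the pattern comes from was not tested. In Cyp7a1-labelled livers the r of Sox9 was -0.46 with Krt7, -0.04 with Epcam, 0.07 with Krt19 and 0.28 with Ezr, and in control livers it was 0.40 with Krt7, 0.51 with Epcam, 0.23 with Krt19 and 0.38 with Ezr. Sox9 did not pass with any of the other 8 genes in either group, and its smallest adjusted p was 0.274 in Cyp7a1-labelled livers and 0.244 in control livers.

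For Tff3 most correlations had opposite signs in the 2 groups. In Cyp7a1-labelled livers its r with Krt7 was -0.91 (exact permutation p = 0.00176, adjusted p = 0.0423) and rho -0.76 (p = 0.0368, adjusted p = 0.174), and r was -0.68 without Cyp7a1 24 and Cyp7a1 36, the 2 livers farthest from the Tff3 median. In control livers r was 0.81 (exact permutation p = 0.0144, adjusted p = 0.104) and rho 0.74 (p = 0.0458, adjusted p = 0.174), with r = 0.83 without the 2 farthest. The control values rest on only 2 to 25 reads of Tff3 and 9 to 54 reads of Krt7 per library. Cyp7a1 36 had the most Tff3 and the least Krt7 of its group, and Cyp7a1 24 the least Tff3 and the most Krt7. The r of Tff3 was below 0 with 7 of the other 8 genes in Cyp7a1-labelled livers and above 0 with 7 of 8 in control livers. That of Krt23 was above 0 with 7 of 8 in Cyp7a1-labelled livers and below 0 with all 8 in control livers, none past the threshold. The difference between the groups in these correlations was not tested, and the 8 values of a gene come from the same livers and are not independent. With 1 liver left out, the Tff3 with Krt7 call was lost without any of Cyp7a1 2, 17, 19, 24, 26, 28 or 36, the Krt8 with Krt18 call without any of Cyp7a1 2, 17, 19, 24, 26 or 36, and the Krt19 with Ezr call without any of Control 13, 20, 25 or 38. All 3 calls were lost with quantile normalization.

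**Figure D2:**
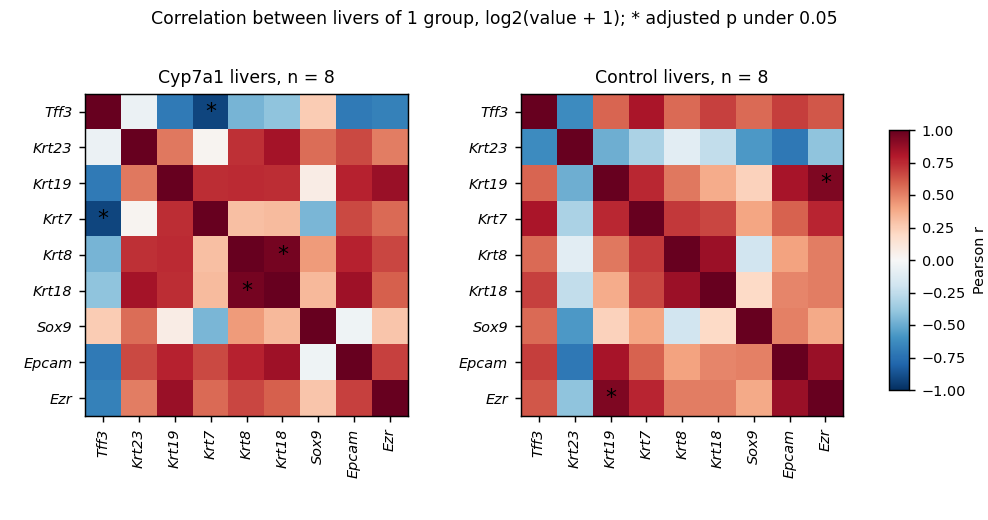
Pearson r of log2(normalized counts + 1) for each pair of the 9 genes over the 8 Cyp7a1-labelled livers (left) and the 8 control livers (right), red for positive and blue for negative r, with an asterisk where the exact permutation p adjusted over 72 correlations was under 0.05. The row of Tff3 is mostly blue on the left and red on the right, while the block of Krt19, Krt7, Epcam and Ezr is red in both. Krt8 and Krt18 are red with each gene of that block in both panels too.

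**Figure D3:**
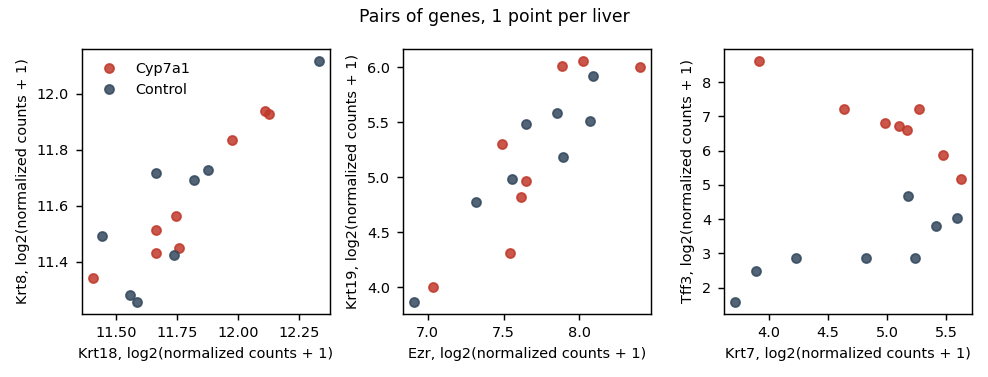
Each point is 1 liver on axes of log2(normalized counts + 1), with Krt8 against Krt18, Krt19 against Ezr and Tff3 against Krt7 for Cyp7a1-labelled (red) and control livers (dark blue). The first 2 panels rise in both groups, with r of 0.96 and 0.86 in Cyp7a1-labelled livers and 0.85 and 0.93 in control livers, and the third falls in Cyp7a1-labelled livers (r = -0.91) and rises in control livers (r = 0.81).

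Genes outside the set whose levels followed Tff3 or Krt23 most closely were sought among 10372 genes with a mean of at least 50, by the smaller of the r in the 8 Cyp7a1-labelled and the r in the 8 control livers. These values describe likeness only and carry no test, since so many genes were searched over 8 livers a group. Among the closest to Tff3 were Cep89 with 0.80, Sik1 with 0.78, Slc37a1 with 0.75 and Pvrl2 with 0.70. Slc37a1 lies 157 kb and Sik1 715 kb from Tff3 on chromosome 17. For Krt23 they were Tap1 with 0.85, Erlin1 with 0.83, Mcl1 with 0.83, Ncald with 0.82 and Myef2 with 0.81. Of these genes Tap1, a peptide transporter of antigen presentation, and Ncald, a neuronal calcium sensor, differed between the groups. Tap1 averaged 763 normalized counts in Cyp7a1-labelled livers and 939 in control livers (log2 fold change -0.31 ± 0.08 SE, limma adjusted p = 0.0348), and Ncald 134 in Cyp7a1-labelled livers and 233 in control livers (-0.80 ± 0.18, adjusted p = 0.0118). The Tap1 call was lost without any of Cyp7a1 17, 19, 24 or 28 or Control 7, 16, 25 or 35, and with equal totals.

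Lists of genes related to the 9 by cell type or function, 11 in all, were read in the same fit across all 12617 genes. Of 105 distinct listed genes tested, 4 were higher and 5 lower in Cyp7a1-labelled livers (limma adjusted p under 0.05), or 8.57%, beside 6.12% of all genes. Their median log2 fold change was -0.0018. The count of lower genes was 1 to 3 without any of Cyp7a1 17, 19, 26, 28 or 36 or Control 7, 12, 13, 16, 25 or 38, and 2 with equal totals.

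Of 25 further biliary epithelial markers 18 were tested, 1 higher and 1 lower, with a median log2 fold change of 0.04. Atp1b1, a sodium pump subunit, rose to 1307 ± 383 normalized counts in Cyp7a1-labelled livers, against 891 ± 94.8 in control livers (SD, n = 8 each), a log2 fold change of 0.52 ± 0.13 (SE, limma adjusted p = 0.0219). Clu, the secreted chaperone clusterin, fell to 34259 ± 1925 in Cyp7a1-labelled livers, against 40379 ± 2959 in control livers (-0.24 ± 0.06, adjusted p = 0.0289), a call lost without any of Cyp7a1 19, 26 or 28 or Control 16, 25 or 38. Both genes stood far above Krt19, which averaged 40.3 in Cyp7a1-labelled livers and 37.6 in control livers. Which cells the Atp1b1 and Clu transcripts come from was not tested. The markers that did not pass include Spp1, the duct-secreted osteopontin, with a log2 fold change of 0.18 ± 0.33 and Pkhd1, the cilium protein fibrocystin, with -0.24 ± 0.18 (SE). The summed level of the 18 was 42930 to 47407 in Cyp7a1-labelled livers and 46207 to 53522 in control livers. Clu makes up most of this sum. Without Clu, a choice made after its values were seen, the sum was 8663 to 12627 in Cyp7a1-labelled livers and 8056 to 13049 in control livers, and the part of duct cell number in the values of Tff3 and Krt23 was not tested.

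Among proteins that link keratins to desmosomes, 1 of 10 tested genes was higher and 0 lower. Their median log2 fold change was -0.04, with 4 of 10 above 0. Pkp2, plakophilin 2 of the desmosome plaque, averaged 760 ± 53.6 normalized counts in Cyp7a1-labelled livers and 660.3 ± 31.6 in control livers (log2 fold change 0.20 ± 0.05 SE, limma adjusted p = 0.0204). In the list of ezrin relatives and apical scaffold proteins 2 of 12 were lower and 0 higher. Of the 12, 8 had a log2 fold change above 0, and the median was 0.09. Pls1 had the largest, 1.20 ± 0.39 (SE), and did not pass (limma adjusted p = 0.0807). Slc9a3r1, the scaffold NHERF1 that binds ezrin, fell to 3416 ± 395 in Cyp7a1-labelled livers, against 4485 ± 446 in control livers (-0.40 ± 0.08, adjusted p = 0.00574). Ppp1r16a, a regulatory subunit of protein phosphatase 1, had a log2 fold change of -0.22 ± 0.06 (adjusted p = 0.0372), and its call was lost without any of Cyp7a1 19, 24, 26, 28 or 36 or Control 7, 12, 16 or 25, and with equal totals.

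Among 17 genes of epithelial junctions limma, edgeR and DESeq2 each called 0, with 1 at an unadjusted limma p under 0.05. The nearest were the tight junction proteins Cgn with a log2 fold change of -0.18 ± 0.08 (limma adjusted p = 0.235) and Marveld2 with 0.21 ± 0.10 (adjusted p = 0.272). Of 19 Notch and biliary fate regulators limma called 0, with 4 at an unadjusted p under 0.05, edgeR 0 and DESeq2 1. Rbpj, the DNA-binding mediator of Notch, had 0.30 ± 0.09 (adjusted p = 0.0595) and Hes1, its target, -0.40 ± 0.15 (adjusted p = 0.137). Rbpj passed with quantile normalization, in DESeq2 and without any of Cyp7a1 17 or Control 7 or 35, and Hes1 without Control 16. Of 12 YAP targets 1 was lower and 0 higher, with a median log2 fold change of -0.06 and 2 of 12 above 0. Cyr61, a secreted matrix protein, had 65.9 to 174 normalized counts in Cyp7a1-labelled livers and 158 to 310.3 in control livers (-0.68 ± 0.19, adjusted p = 0.0451). Its call was lost without any of Cyp7a1 17, 19, 28 or 36 or Control 12, 13, 16, 25, 35 or 38, with equal totals and in edgeR (adjusted p = 0.0524). Ctgf, another of the 12, had a log2 fold change of the other sign, 0.54 ± 0.27 (SE, limma adjusted p = 0.273).

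Keratins other than those described, 16 on the list, and trefoil or mucus proteins, 14 on the list, had 0 genes among those tested, so no other trefoil gene could be set beside Tff3. Of 15 genes of intestine and pancreas 2 were tested. Lgals4, the gut lectin galectin 4, averaged 819 ± 77.8 normalized counts in Cyp7a1-labelled livers and 637 ± 87.9 in control livers (log2 fold change 0.37 ± 0.09 SE, limma adjusted p = 0.0156). Cela1, an elastase, averaged 111 ± 14.0 in Cyp7a1-labelled livers and 152 ± 37.9 in control livers (-0.43 ± 0.12, adjusted p = 0.0482), a call lost without any of Cyp7a1 2, 5, 17, 19, 26, 28 or 36 or Control 7, 12, 13, 20 or 25, and with equal totals. The summed level of these 2 genes was 842 to 1027 in Cyp7a1-labelled livers and 699.8 to 872 in control livers. Lgals4 makes up most of this sum, and Cela1 differed in the other direction. The part of the sum in the Tff3 difference was not tested.

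Mesothelium, the cell sheet of the liver surface, also contains keratins 8, 18, 19 and 7. Of 8 mesothelial markers 4 were tested. Limma, edgeR and DESeq2 each called 0, and 0 had an unadjusted limma p under 0.05, with Upk3b at a log2 fold change of -0.26 ± 0.39 (limma adjusted p = 0.778) and Wt1 at 0.41 ± 0.42 (adjusted p = 0.648). Their summed level was 64.3 to 251 in Cyp7a1-labelled livers and 50.2 to 312 in control livers. The lowest sums stood in Cyp7a1 28 and Control 20, which also had the least Krt19 of their groups, and the highest in Cyp7a1 2 and Control 13, which had the most. Other Cyp7a1-labelled livers did not follow this order. Cyp7a1 26 had a sum of 137 with 63.6 normalized counts of Krt19, the second highest of its group, and Cyp7a1 19 a sum of 239.9 with 27.3. Without Cyp7a1 28 and Cyp7a1 36, the 2 livers farthest from the median sum, r between the sum and Krt19 was -0.40 in Cyp7a1-labelled livers, and without Control 20 and Control 38 it was 0.97 in control livers. Hepatocyte markers, 11 of 12 tested, averaged at least 9965 normalized counts in Cyp7a1-labelled livers and 8906 in control livers, the values of Serpina1a, with 1 higher and 0 lower. Tat, tyrosine aminotransferase, averaged 38629 ± 19114 normalized counts in Cyp7a1-labelled livers and 20166 ± 5298 in control livers (0.84 ± 0.24, adjusted p = 0.0466), a call lost without any of Cyp7a1 5, 17, 19, 28 or 36 or Control 12, 13, 16, 20, 35 or 38.

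**Figure D4:**
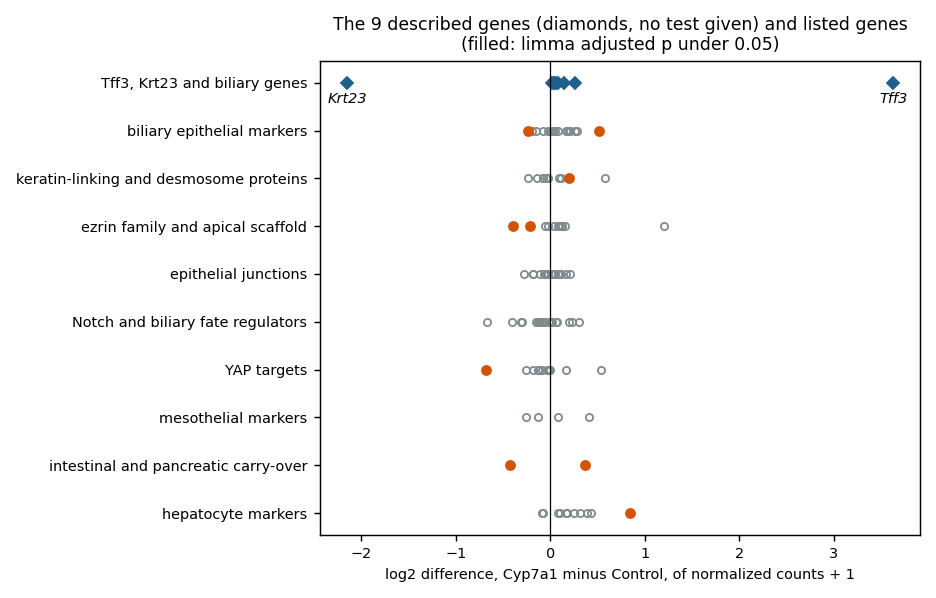
Log2 difference of Cyp7a1-labelled minus control livers for the 9 genes (diamonds, top row, no test shown) and for the genes of each list (circles, filled orange where limma adjusted p was under 0.05). Tff3 at 3.63 and Krt23 at -2.15 were chosen by this difference, so nothing is read from their place outside the span of every list. Listed genes run from -0.68 for Cyr61 to 1.20 for Pls1, and those called from -0.68 for Cyr61 to 0.84 for Tat.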

How the data were processed

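The authors deposited 1 table of normalized counts, a signal per gene and library, covering 12618 genes and 16 libraries, and 0 of its columns were without a sample. Per the labels' protocols, RNA was taken from frozen liver and 800 ng entered a KAPA mRNA library. The submitters' processing notes name mm10 and, with no role or order, STAR 2.7.11a, Trim Galore 0.6.10, R 3.6.3, DESeq2 and featureCounts. They give no annotation, strand setting or rule for choosing the genes.

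Division of the deposited values by a step fitted to each library (0.769 to 1.54, the worth of 1 read) gave whole reads for 99.9% to 99.99% of values within 0.05 reads. Ccne2, which held text in 1 cell, was left out, and 19 symbols turned into dates were restored from gene IDs.

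Groups were compared with limma 3.58.1 (trend) in R 4.3.3, run on log2(value + 1). The test was two-sided, p-values were adjusted over 12617 genes by the Benjamini-Hochberg method, with a threshold of 0.05 and a minimum mean of 10 that removed no gene. Each fold change subtracts the control mean from the Cyp7a1-labelled mean on that scale, so changes of low genes are understated. The labels give no batch or pairing. The genes, the lists and the tests were chosen with earlier results of these data known. Named genes are the 9, the up to 4 genes with the smallest p past the threshold in each list (2 where none passed) and the 5 most like Tff3 and Krt23, predicted genes and pseudogenes left out; 1 gene that the rule names is not reported here. Spp1, Pkhd1, Pls1, Ctgf and Krt8-ps were named after their values were seen. edgeR 4.0.16 and DESeq2 1.42.0 on recovered reads, calling 760 and 1121 genes, were alternatives, and the fits were tested on simulated data. Coordinates are 1-based, from GENCODE M21 on GRCm38. Principal transcripts are those tagged by APPRIS there.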

Additional observations from a re-analysis of the deposited data

Results flagged for a closer look

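Of 68 groups of 8 livers looked at, 4 held a liver whose gap to the nearest of the other 7 exceeded Dixon's 95% limit on the log2 scale. The 68 are 2 for each of the 9 genes and each other gene that the naming rule gives. Chance gives about 1 in 20 groups, or 3.4 here. Sox9 had 87.9 normalized counts in Control 25, against 146 to 223 in the other 7 control livers. Slc9a3r1 had 2637 in Cyp7a1 24, against 3282 to 3977 in the others of its group. Upk3b had 12.6 in Control 20, against 41.5 to 107 in the other control livers, and Sik1 had 859 in Control 12, against 412 to 580.1. Tff3 and Krt23 had no such liver in either group.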

How the results depend on the processing

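Tff3 and Krt23 kept their sign under a pseudocount of 8, a minimum mean of 50, quantile normalization, equal totals, edgeR, DESeq2 and each library left out, with log2 differences of 2.83 to 3.86 for Tff3 and -2.28 to -1.89 for Krt23. Both were chosen by this difference. As their groups do not overlap, a pseudocount, a minimum mean or 1 library left out could not reverse the sign, so only the sizes are informative there. No filter gave the same fit as the minimum mean of 10. The differences of Krt19, Krt8, Sox9 and Ezr took both signs over these settings, within the spread between livers, while those of Krt7, Krt18 and Epcam stayed above 0. The minimum mean of 50 removed Krt19 and Krt7. Over all genes, leaving out 1 library gave 230 to 399 higher and 245 to 414 lower genes, against 387 and 385, with 230 higher and 245 lower without Cyp7a1 28 and 256 lower without Control 16. Among listed genes it gave 3 to 6 higher and 1 to 4 lower, and equal totals gave 2 lower, against 4 and 5. Pairs of the 9 genes past the threshold numbered 0 to 3 in Cyp7a1-labelled livers and 0 to 2 in control livers with 1 liver left out, where fewer livers raise the smallest p. They numbered 0 in each group with quantile normalization and 3 in control livers with equal totals, and the cause was not tested. The correlation of Tff3 with Krt7 in Cyp7a1-labelled livers ran from -0.98 to -0.81 and that of Krt8 with Krt18 from 0.94 to 0.98. No paired analysis was possible because the groups share no replicate numbers.

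Control levels of Tff3 rest on 2 to 25 reads per library, and those of Krt19 and Krt7 on 9 to 82 reads in any library. The measured coefficient of variation of Krt19 was 52.2% in Cyp7a1-labelled livers and 37.8% in control livers, beside 14.7% and 16.2% from counting alone, and that of Krt7 was 32.5% and 45.8%, beside 16.4% and 18.2%. The spread between livers thus exceeded counting error.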

Other observations

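The summed level of the 4 mesothelial markers tested, Msln, Upk3b, Wt1 and Gpm6a, was set against each of the 9 genes within each group, a comparison chosen after the values were seen. In control livers Krt19 followed the sum with r = 0.97 (exact permutation p = 0.000546, adjusted over 18 correlations p = 0.00982) and rho = 0.90 (p = 0.00456, adjusted p = 0.0821), and r was 0.97 without the 2 livers farthest from the median sum. In Cyp7a1-labelled livers r was 0.65 (exact permutation p = 0.0847, adjusted p = 0.254) and rho 0.55 (p = 0.171, adjusted p = 0.440), and r was -0.40 without the 2 farthest, Cyp7a1 28 and Cyp7a1 36, on which the relation rests. Ezr also passed in control livers, with r = 0.91 (exact permutation p = 0.00372, adjusted p = 0.0335), rho = 0.76 (p = 0.0368, adjusted p = 0.206) and r = 0.79 without the 2 farthest. In Cyp7a1-labelled livers r of Ezr was 0.62 (exact permutation p = 0.109, adjusted p = 0.281), and -0.03 without the 2 farthest. The other 16 did not pass. For Tff3 r was -0.50 in Cyp7a1-labelled livers (exact permutation p = 0.215, adjusted p = 0.388; rho = -0.38, p = 0.360) and 0.51 in control livers (p = 0.198, adjusted p = 0.388; rho = 0.57, p = 0.151), and 0.34 and 0.73 without the 2 farthest.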
